A study of Oryctolagus cuniculus with 9 samples.

Results

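The 10 mitochondrially encoded respiratory chain genes described here are ND1, ND2, ND3, ND4, ND5, ND6, COX1, COX2, COX3 and CYTB. They were chosen by gene symbol and are 10 of the 14870 genes listed in rabbit cartilage. ND6 was treated apart from the other 9 because it alone is encoded on the light strand of the mitochondrial DNA. The study sequenced RNA from 9 cartilage samples of New Zealand white rabbits aged 4 to 5 months, collected 12 weeks after a defect was drilled in the trochlear groove of the knee. The groups were healthy cartilage, defects left untreated, and defects filled with CLCS, a collagen scaffold that carries chondroitin sulfate, with 3 libraries in each. Right knees received the scaffold and left knees did not, so untreated and CLCS libraries may come from the same rabbits, and the labels do not tie libraries to animals. The healthy tissue came from another place in the joint, so injury and site cannot be told apart in any comparison with healthy cartilage. Replicates are separate samples by their labels, and p-values measure the spread between these samples.

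Mitochondrial DNA is transcribed from both strands as long precursors, which are cut at the transfer RNAs that punctuate them. Nearly all of its messengers come from one of these precursors, and ND6 comes from the other, from a stretch between ND5 and CYTB. The ND proteins are subunits of complex I, which oxidizes NADH, CYTB is the core of complex III, which passes the electrons to cytochrome c, and the COX proteins form the catalytic core of complex IV, which reduces oxygen. Chondrocytes live in a tissue without vessels, are poor in oxygen and draw much of their ATP from glycolysis.

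Values are the deposited DESeq2 normalized reads, that is, reads of a gene divided by the size factor of its library. The reads recovered from the deposited tables sum to 724986 to 1226408 per library, far fewer than the aligned read pairs that the study lists, and the other reads were not analysed here. Of the recovered reads, 1.21% to 4.10% lay on the 13 mitochondrial protein genes. A gene without a symbol, ENSOCUG00000023467, took 1.49% to 49.4% of the reads of a library, and the size of its share bears on any scaling by library totals. The cartilage label was checked with 11 listed markers, whose summed level was 8619 to 12164 normalized reads in healthy, 819 to 10114 in untreated and 10126 to 28232 in CLCS libraries. COL2A1, the main cartilage collagen, had 458 normalized reads in untreated replicate 3 and 4062 to 25534 in the other 8 libraries. COL2A1 made up most of the marker sum in every library, so that sum adds little beyond it. Untreated replicate 3 also had the lowest marker sum, 819, and the lowest share of ENSOCUG00000023467, which took 17.8% to 49.4% of the reads of the other libraries. It thus stood apart, and values without it are given beside some of the results. No gene length was used, so levels are not compared between genes, and statements on shares of reads refer to reads only. The strand setting of the authors' counting is not given in the sources used here, so reads of ND6 and reads of RNA from the opposite strand of the same stretch cannot be told apart. The same limit holds for the heavy strand genes and for every nuclear gene and marker named here. Values are therefore reads assigned to a gene, and not a measure of its messenger alone. In bulk tissue, fewer cells of a type and less RNA per cell cannot be told apart.

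ND6 (ENSOCUG00000029113), a membrane subunit of complex I, had higher values in the libraries of both defect groups than in healthy cartilage. In healthy cartilage its level was 13473, 10368 and 13465 normalized reads in replicates 1, 2 and 3 (12435 ± 1790, SD, n = 3). In untreated defects it was 27606, 26735 and 18268 (24203 ± 5158, SD, n = 3). In CLCS treated defects it was 29229, 15257 and 18153 (20879 ± 7374, SD, n = 3). Each of the 6 defect libraries lay above the highest healthy library, whereas the untreated and CLCS libraries overlapped. Within the CLCS group, replicate 1 stood well above the others.

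**Figure D1:**
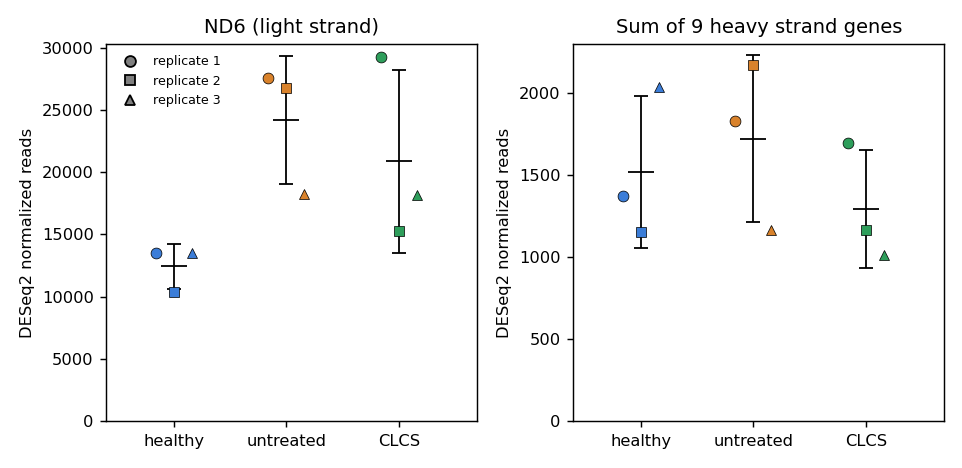
DESeq2 normalized reads of ND6 (left) and of the sum of the 9 heavy strand genes (right) in each library, by group, on axes that start at 0. Symbols mark replicates, and the bars give the mean and SD of 3 libraries. All 6 defect libraries lie above 13473 for ND6, while the heavy strand sums of the 3 groups overlap.

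The difference in ND6 did not pass the limma test across all genes. It was 0.95 on the log2 scale in untreated against healthy cartilage (SE 0.31, 95% interval 0.23 to 1.66, limma adjusted p = 0.168), with a rank of 342 by p-value among 3496 genes tested. Without untreated replicate 3, which had the lowest ND6 level of its group, the difference was 1.14 (limma adjusted p = 0.183). In CLCS against healthy cartilage it was 0.70 (SE 0.33, 95% interval -0.07 to 1.47, limma adjusted p = 0.329). Without CLCS replicate 1 this value was 0.43. Between CLCS and untreated defects the difference was -0.25 (SE 0.34, limma adjusted p = 0.996), and its 95% interval of -1.04 to 0.55 leaves room for a change in either direction. Without untreated replicate 3 this difference was -0.44 (limma adjusted p = 0.841). DESeq2 on the recovered reads called ND6 in untreated against healthy cartilage, with 0.96 on the log2 scale and an adjusted p of 0.0336, where it called 7.87% of all genes tested, and it did not call ND6 in CLCS against healthy cartilage (adjusted p = 0.206). The study, which also used DESeq2, lists ND6 as higher in untreated defects than in healthy cartilage and does not list it for CLCS. The comparisons with healthy cartilage share the 3 healthy libraries.

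Relative to the heavy strand genes of the same library, ND6 also had more reads in the defects, a ratio that scaling between libraries does not touch. There were 9.83, 9.01 and 6.61 ND6 reads per read on the 9 heavy strand genes in healthy replicates 1, 2 and 3 (8.48 ± 1.67, SD, n = 3). The untreated libraries had 15.1, 12.3 and 15.7 (14.3 ± 1.79, SD, n = 3). The CLCS libraries had 17.2, 13.1 and 17.9 (16.0 ± 2.60, SD, n = 3). The healthy libraries thus lay below all 6 defect libraries, and the defect groups overlapped. As a share of the reads on all 13 mitochondrial protein genes, ND6 made up 88.4% ± 2.09 in healthy, 93.0% ± 0.81 in untreated and 93.7% ± 1.02 in CLCS libraries (SD, n = 3 each). Its lowest share was 86.0% (95% Wilson interval 85.5% to 86.5%) and its highest 94.4% (94.0% to 94.7%), intervals that cover counting error only. These ratios combine several members and were given no test.

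**Figure D2:**
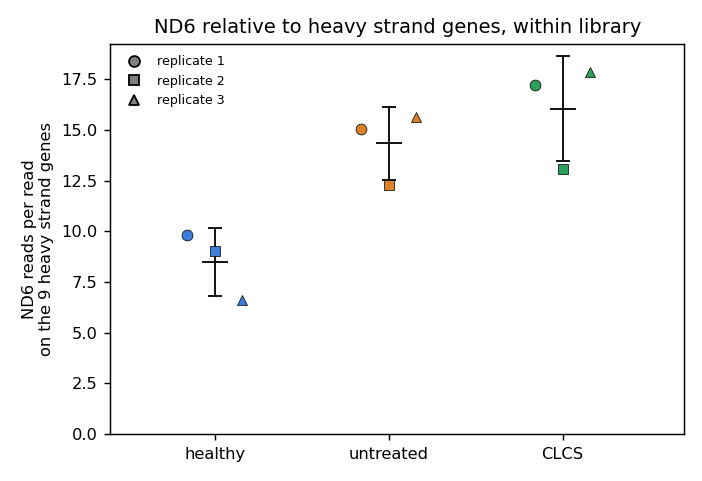
Reads on ND6 per read on the 9 heavy strand genes in each library, on an axis that starts at 0. Symbols mark replicates, and the bars give the mean and SD of 3 libraries. Healthy libraries lie at 6.61 to 9.83 and the 6 defect libraries at 12.3 to 17.9.

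The ratio behaved unevenly when ND6 was set against single heavy strand genes. The ratio to COX3 ran from 50.0 to 105 in healthy, 138 to 197 in untreated and 122 to 218 in CLCS libraries. For ND5 it ran from 21.3 to 34.6, from 36.1 to 51.5 and from 40.3 to 71.8. In contrast, the ratio to ND2 was 191 to 249 in healthy, 201 to 278 in untreated and 231 to 422 in CLCS libraries, ranges that overlapped. All untreated libraries lay above all healthy ones in the ratio to 5 of the 9 genes, as did all CLCS libraries in the ratio to 5, and 4 genes (ND1, ND5, COX3 and CYTB) were common to both counts. The ratios to COX1, ND2 and ND3 overlapped with healthy cartilage in both defect groups. ND6 by itself lay above healthy cartilage in every defect library, and the same count was not made for its ratio to all other genes. These counts therefore cannot be read as particular to the heavy strand genes.

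None of the 10 genes was called in untreated against healthy cartilage at a limma adjusted p under 0.05, against a background of 2.55% (89 of 3496 genes tested), and 2 of the 10, ND2 and ND6, had an unadjusted p under 0.05, against 16.6% of all genes. The same 2 genes had groups that did not overlap, both higher in untreated defects, where 22.0% of all genes had groups apart. In CLCS against healthy cartilage 0 of 10 were called by limma, against 3.16% (104 of 3294), 0 had an unadjusted p under 0.05, against 17.5%, and ND6 alone had groups apart, against 24.2%. DESeq2 called ND6 in the first of these comparisons and no member in the second, and the edgeR quasi-likelihood test called none in either. In CLCS against untreated defects limma, edgeR and DESeq2 called 0 of 10. The background there was 0% (0 of 3275 by limma), with 2.90% of all genes and none of the members at an unadjusted p under 0.05. ND2 alone had groups apart, against 8.34% of all genes.

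**Figure D3:**
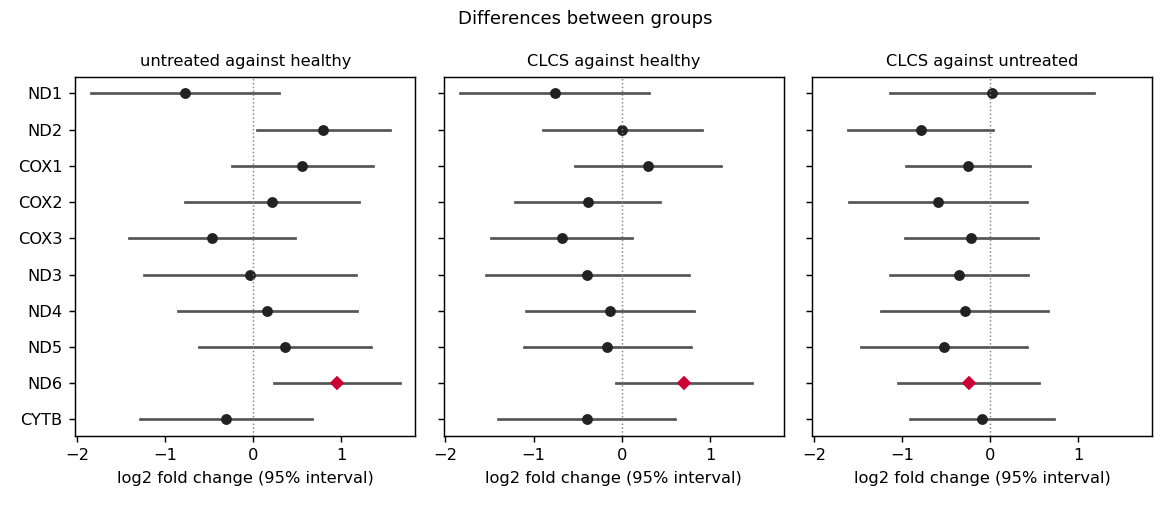
Log2 fold change of each gene between groups (points, ND6 as a red diamond) with 95% intervals from limma (lines) on log2(value + 1), 6 libraries per comparison. The interval of ND6 lies above 0 in untreated against healthy cartilage, as does that of ND2. By limma, no gene passes adjustment over all genes tested.

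Of the 9 heavy strand genes, 5 were higher and 4 lower in untreated than in healthy cartilage by the sign of their log2 fold change, with a median of 0.16 beside -0.02 over all genes tested. In CLCS against healthy cartilage 2 were higher and 7 lower, with a median of -0.39 beside -0.08. In CLCS against untreated defects 1 was higher and 8 lower, with a median of -0.29 beside 0.00. These signs moved with the scaling. With library totals outside the 13 mitochondrial genes the counts became 6 and 3, 0 and 9, and 0 and 9, while the median of all genes itself shifted to 0.19, -0.40 and -0.54. The log2 difference of ND6 was then 1.16 in untreated and 0.36 in CLCS against healthy cartilage, and its CLCS range of 10331 to 32355 overlapped the healthy range of 9395 to 16670.

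Together the 9 heavy strand genes had 1371, 1151 and 2038 normalized reads in healthy replicates 1, 2 and 3 (1520 ± 462, SD, n = 3). The sums were 1833, 2173 and 1166 in untreated (1724 ± 512, or a mean of 2003 without replicate 3) and 1699, 1167 and 1016 in CLCS libraries (1294 ± 359). The 3 groups overlapped, also with TMM scaling and with totals outside the 13 mitochondrial genes. In recovered reads these sums amounted to 816 to 2327 per library, against 10216 to 35044 for ND6.

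Among the heavy strand subunits of complex I, ND2 (ENSOCUG00000029090), which lies in the membrane arm, was the one whose groups were apart. Its level was 70.7, 41.6 and 66.9 normalized reads in healthy, 121, 96.0 and 90.7 in untreated and 69.2, 36.4 and 78.4 in CLCS replicates 1, 2 and 3. All untreated libraries lay above the libraries of both other groups, which overlapped with each other. The log2 difference was 0.79 in untreated against healthy cartilage (SE 0.32, 95% interval 0.04 to 1.55, limma adjusted p = 0.272) and -0.79 in CLCS against untreated defects (SE 0.35, 95% interval -1.61 to 0.03, limma adjusted p = 0.996). Without untreated replicate 3 these values were 0.88 (limma adjusted p = 0.367) and -0.87 (limma adjusted p = 0.835). In CLCS against healthy cartilage the difference was 0.00 (SE 0.39, 95% interval -0.90 to 0.90).

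ND1 (ENSOCUG00000029086), which sits where the membrane arm meets the arm that binds NADH, was the least covered of the 10, with 10 to 47 reads per library. It had 44.3, 27.4 and 20.8 normalized reads in healthy, 29.9, 13.002 and 11.8 in untreated and 30.0, 9.84 and 16.2 in CLCS replicates 1, 2 and 3. The groups overlapped, with log2 differences of -0.78 (SE 0.45) in untreated and -0.76 (SE 0.46) in CLCS against healthy cartilage. At this depth a decrease of up to 1.85 and an increase of up to 0.29 on the log2 scale lay within the 95% interval for untreated defects. ND3 (ENSOCUG00000029105), a small subunit near that same junction, spread most in healthy cartilage, with 39.6, 69.0 and 150.0 normalized reads, while it ranged from 52.6 to 93.0 in untreated and from 42.3 to 72.3 in CLCS libraries.

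ND4 (ENSOCUG00000029108) and ND5 (ENSOCUG00000029112), proton pumping subunits of the membrane arm, took the largest mean shares of the heavy strand reads. ND5 accounted for 28.5% ± 2.49 of these reads in healthy libraries, 32.2% ± 1.85 in untreated and 29.8% ± 4.25 in CLCS libraries, and ND4 for 18.6% ± 2.53, 18.3% ± 1.57 and 19.8% ± 3.17 (SD, n = 3 each). Their normalized reads ran from 299 to 632, 355 to 741 and 253 to 544 for ND5 in healthy, untreated and CLCS libraries. For ND4 they ran from 212 to 431, 197 to 434 and 167 to 347. Every pair of groups overlapped for both genes. Healthy replicate 3 and untreated replicate 2 were the highest libraries of their groups for both.

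CYTB (ENSOCUG00000029115), the mitochondrially encoded subunit of complex III, had 111, 42.6 and 73.2 normalized reads in healthy, 75.6, 51.0 and 47.1 in untreated and 73.4, 36.4 and 56.0 in CLCS replicates 1, 2 and 3. The groups overlapped. The log2 difference from healthy cartilage was -0.31 (SE 0.42) in untreated and -0.40 (SE 0.43) in CLCS defects, both smaller than their standard errors.

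The mitochondrial subunits of complex IV did not share a sign. COX1 (ENSOCUG00000029096), which holds the site where oxygen is reduced, had 195, 100.5 and 151 normalized reads in healthy, 254, 204 and 183 in untreated and 219, 131 and 194 in CLCS replicates 1, 2 and 3, with log2 differences from healthy cartilage of 0.56 (SE 0.34) and 0.30 (SE 0.36). COX3 (ENSOCUG00000029103), a structural subunit of that core, had 128, 205 and 269 in healthy, 140, 193 and 97.9 in untreated and 134, 125 and 101 in CLCS replicates 1, 2 and 3, with log2 differences of -0.47 (SE 0.40) and -0.68 (SE 0.34, limma adjusted p = 0.360). Neither gene had groups apart. COX3 made up 13.5% ± 4.24 of the heavy strand reads in healthy libraries, 8.31% ± 0.62 in untreated and 9.51% ± 1.45 in CLCS libraries (SD, n = 3 each). Its share in all untreated libraries (7.65% to 8.88%) was below that in the healthy ones (9.35% to 17.8%), while the CLCS shares (7.91% to 10.7%) overlapped them. This was picked out of the shares of all 9 genes, and no other gene had a share that separated untreated from healthy libraries. COX2 (ENSOCUG00000029099), which receives the electrons from cytochrome c, ranged from 153 to 245 normalized reads in healthy, 131 to 348 in untreated and 108 to 210 in CLCS libraries.

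**Figure D4:**
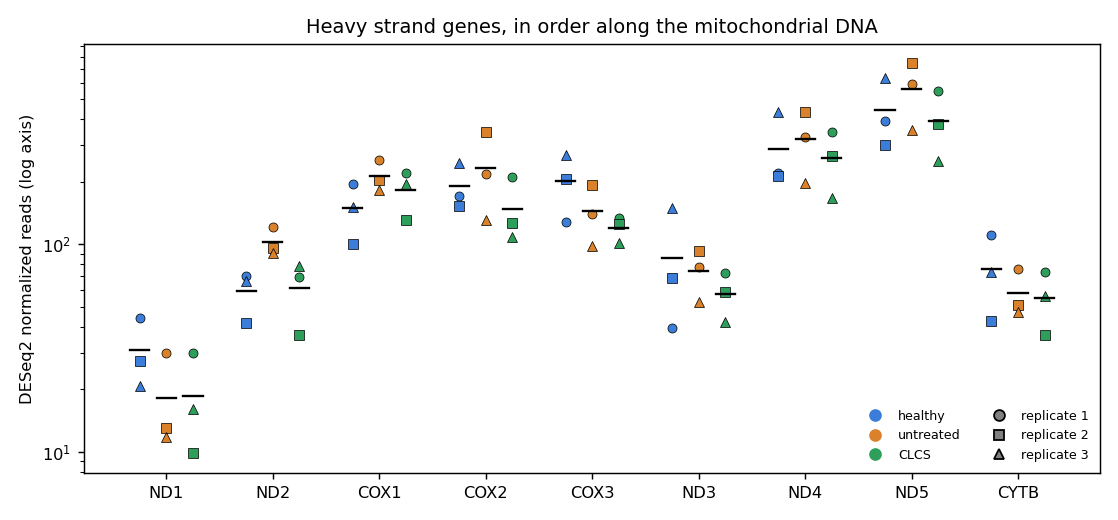
DESeq2 normalized reads (log axis) of the 9 heavy strand genes in each library, in their order along the mitochondrial DNA. Colours mark groups, symbols replicates and bars the mean of 3 libraries. Only for ND2 do all untreated libraries (90.7 to 121) lie above both other groups.

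The other 3 mitochondrial protein genes are ATP6, ND4L and ATP8. ATP6, a subunit of the ATP synthase with 52 to 155 reads per library, had log2 differences of -0.02 in untreated and -0.53 in CLCS against healthy cartilage. For ND4L, the smallest ND subunit, they were -0.25 and -0.63. Neither was called by limma, edgeR or DESeq2 in any comparison or had an unadjusted limma p under 0.05, and the groups of both overlapped. ATP8, with 1 to 7 reads per library, did not pass the filter on low values.

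The heavy strand genes did not vary as a block across the 9 libraries. Pearson's r of log2(value + 1) ran from -0.38 (COX1 with COX3) to 0.96 (ND4 with ND5) over their 36 pairs, with a median of 0.33. COX2, COX3, ND3, ND4 and ND5, which follow each other along the DNA with only the ATP6, ATP8 and ND4L genes and transfer RNAs between them, had r of 0.54 to 0.96 over their 10 pairs (median 0.80). The other 26 pairs had a median of 0.20, with the highest values for ND2 with COX1 (0.87) and ND1 with CYTB (0.80). The set of 5 was singled out after these values were seen. ND6 was most like COX1 (0.83) and ND2 (0.68) and least like COX3 (-0.26). These values are descriptions over libraries that share groups and size factors, and the genes with few reads carry more counting error.

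**Figure D5:**
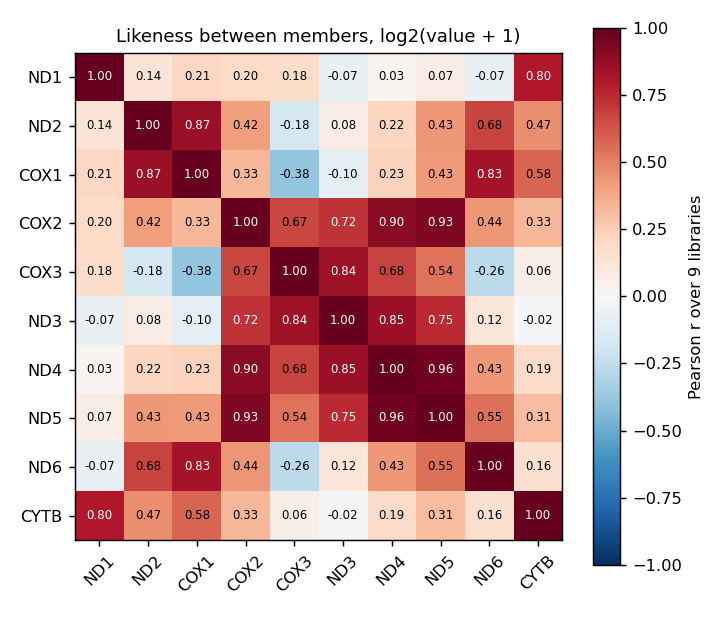
Pearson's r between each pair of the 10 genes over 9 libraries on log2(value + 1), in order along the mitochondrial DNA, with red for positive and blue for negative values. COX2 to ND5 form a block of 0.54 to 0.96, and ND6 reaches 0.83 with COX1.

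Among 3665 other genes, the 5 whose pattern over the 9 libraries was most like that of ND6 were ENPP5 (r = 0.95), FAT1 (0.95), STON2 (0.91), ATL2 (0.91) and EDIL3 (0.90). ENPP5 ran from 4.06 to 6.60 normalized reads in healthy, 23.6 to 31.0 in untreated and 12.5 to 35.1 in CLCS libraries. ATL2, a GTPase that shapes the endoplasmic reticulum, ran from 50.7 to 62.3, 67.1 to 82.0 and 63.5 to 79.6. The 5 most like the mean of the 9 heavy strand genes, among 3657, were C2orf69 (0.93), SELENBP1 (0.88), STAT4 (0.88), TOX4 (0.88) and TMUB1 (0.87).

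The nuclear partners of these genes were sparsely covered. Of the nuclear subunits of complexes I to V, 43 were listed, with a summed level of 348 to 367 normalized reads in healthy, 340.0 to 380 in untreated and 315 to 365 in CLCS libraries. Only 9 passed the filter on low values in untreated against healthy cartilage, 8 in CLCS against healthy cartilage and 9 in CLCS against untreated defects, and none was called in any of these by limma, edgeR or DESeq2. At an unadjusted limma p under 0.05 there were 0, 2 and 0. By sign, 6 were higher and 3 lower in untreated against healthy cartilage, 4 and 4 in CLCS against healthy cartilage and 3 and 6 in CLCS against untreated defects. NDUFB4, a complex I subunit with groups apart in CLCS against healthy cartilage, had 45.2 to 67.8 normalized reads in healthy, 24.5 to 53.0 in untreated and 23.7 to 33.1 in CLCS libraries. NDUFS6, of the same complex, had 6.60 to 10.8 normalized reads in healthy, 12.6 to 14.5 in untreated and 15.5 to 17.4 in CLCS libraries, 3 groups that did not overlap. It was singled out after its values were seen. NDUFV2, also of complex I, differed from healthy cartilage by -0.01 (SE 0.27) in untreated and -0.28 (SE 0.27) in CLCS defects on the log2 scale, and ATP5C1, of the ATP synthase, by -0.07 (SE 0.28) and 0.04 (SE 0.29). ATP5G3, of the same enzyme, differed by 0.31 (SE 0.45) and -0.12 (SE 0.46). In complex IV, COX5B differed by 0.03 (SE 0.30) and -0.44 (SE 0.32). COX4I1, of that complex, differed by 1.06 (SE 0.63, limma adjusted p = 0.486) in untreated against healthy cartilage and did not pass the filter in CLCS against healthy cartilage.

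Of the genes that copy and transcribe mitochondrial DNA, 9 were listed and 2 tested, and none was called by limma, edgeR or DESeq2 in any comparison or had an unadjusted limma p under 0.05. These were MTERF4 and MTERF2, members of the mitochondrial transcription termination factor family, with log2 differences of 0.63 (SE 0.76) and 0.37 (SE 0.48) in untreated against healthy cartilage. MTERF4 had 397 normalized reads in untreated replicate 3 and 55.1 and 89.0 in the other untreated libraries, beside 51.8 to 151 in healthy ones. Of the genes that process and degrade mitochondrial RNA, 13 were listed. By limma 0 of 5 tested were called in untreated and 1 of 4 in CLCS against healthy cartilage. This was ELAC2, the nuclease that cuts the 3' ends of transfer RNAs out of the precursors. ELAC2 had 211 to 228 normalized reads in healthy, 231 to 1022 in untreated and 517 to 1321 in CLCS libraries, and it rose by 1.87 on the log2 scale in CLCS against healthy cartilage (SE 0.38, limma adjusted p = 0.0483). Leaving out any 1 of the 6 libraries ended that call, with a limma adjusted p of 0.0775 to 0.163. The calls over all genes tested also fell in these fits, from 104 to between 0 and 75. The study's own DESeq2 lists hold ELAC2 as higher in both defect groups than in healthy cartilage. In untreated against healthy cartilage its log2 difference was 1.39 (SE 0.55, limma adjusted p = 0.261), which DESeq2 called (adjusted p = 0.0308) and edgeR did not. Without untreated replicate 3, which had the lowest ELAC2 level of its group, this difference was 2.04 (limma adjusted p = 0.0559). SLIRP, which binds and stabilizes mitochondrial messengers, differed by 0.09 (SE 0.27) and 0.16 (SE 0.27).

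Markers of other cells moved between the groups as well. The summed level of 8 bone markers was 308 to 921 normalized reads in healthy, 986 to 2984 in untreated and 1864 to 2430 in CLCS libraries. That of 6 osteoclast markers was 6.32 to 34.9, 67.1 to 163 and 46.1 to 162, and that of 9 monocyte and macrophage markers 35.2 to 41.6, 49.0 to 232 and 66.0 to 79.6. Like ND6, these 3 sums were higher in every defect library than in every healthy one. The monocyte and macrophage sum of 232 was that of untreated replicate 3, where TYROBP alone had 150.5. In the other untreated libraries this sum was 49.0 and 55.9. The 9 fibrous tissue markers overlapped in their sum, at 1297 to 4630 in healthy, 2325 to 6003 in untreated and 3071 to 5197 in CLCS libraries, although 3 of them (POSTN, COL1A1 and COL1A2) rose by limma in both comparisons with healthy cartilage. By sign, 5 of the 7 fibrous markers tested were higher and 2 lower in untreated, and 4 higher and 3 lower in CLCS against healthy cartilage. DCN, a small proteoglycan, was among the lower ones, at -2.22 (SE 0.88) and -1.79 (SE 0.74) on the log2 scale, which DESeq2 called in both comparisons and limma in neither. By sign, 0 of the 8 cartilage markers tested were higher and 8 lower in untreated, and 4 higher and 4 lower in CLCS against healthy cartilage. COL2A1 was among the higher ones in CLCS, at 0.71 (SE 0.44, limma adjusted p = 0.462), with groups that did not overlap. CILP, a protein of the cartilage matrix, fell in both comparisons by limma. IBSP, a bone matrix protein, and TYROBP, a signalling adaptor of myeloid cells, rose in CLCS against healthy cartilage by limma. The other 2 monocyte and macrophage markers tested in that comparison were lower by sign, among them AIF1 at -0.58 (SE 0.33), whose groups did not overlap. Of the osteoclast markers, MMP9 differed by 2.81 (SE 0.83) in untreated and 2.96 (SE 0.81) in CLCS against healthy cartilage. For CTSK the differences were 3.07 (SE 0.79) and 2.23 (SE 0.83). None of these was called by limma, while DESeq2 on the recovered reads called MMP9 in both comparisons and CTSK in untreated. The study's own DESeq2 lists hold both genes as higher in both defect groups. The 8 skeletal muscle markers summed to 24.5 to 53.3 in healthy, 16.3 to 20.5 in untreated and 15.7 to 27.4 in CLCS libraries, so that all untreated libraries lay below the healthy ones. In all libraries of each defect group 3 of the 8 were at 0, but these 3 had at most 4 reads in any healthy library. The only muscle marker tested against healthy cartilage, MYLPF, differed by 0.02 (SE 0.43) in untreated and 0.30 (SE 0.45) in CLCS defects. The 7 endothelial markers summed to 3.61 to 9.42, 5.44 to 12.6 and 7.47 to 17.6, and the 2 erythroid and marrow markers listed to at most 3.94. The part of these cells in the values of ND6 was not tested.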

How the data were processed

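The 9 libraries were grouped by their labels. As deposited, each value is a normalized signal. The authors made it from polyA RNA (TruSeq) by aligning reads with TopHat and Bowtie on the oryCun2.0 genome, dropping multiple alignments, counting with eXpress and normalizing with DESeq2, which divides the counts of a library by its size factor. Versions and strand setting are not given in the sources used here. Multiplying back gave whole reads for 100% of values in every library (tolerance 0.001). Healthy columns stand in both tables with identical values and were used once.

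Each pair of groups was compared over its 6 libraries with limma 3.58.1 (R 4.3.3) on log2(value + 1), after filterByExpr of edgeR 4.0.16, with Benjamini-Hochberg adjustment over all genes tested and calls under 0.05. The script was tested on simulated data. Count tests on the recovered reads, edgeR quasi-likelihood and DESeq2 1.42.0, were alternatives. Against healthy cartilage, edgeR called 87 genes for untreated defects and 123 for CLCS, DESeq2 275 and 243. Neither called a gene between CLCS and untreated defects. Ranges are over libraries, ± is SD, and Wilson intervals came from scipy 1.17.1. Nuclear copies of mitochondrial genes, which could take or give reads, were not examined, and no sequence or mitochondrial annotation was used.

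The members and lists were chosen with earlier results of these data known. Named genes were all members, the other 3 mitochondrial protein genes, called genes of each list (otherwise the 2 tested genes with the highest mean) and the 5 genes most correlated with ND6 and with the heavy strand mean. NDUFS6, SLIRP, DCN, AIF1 and COL2A1 were named outside that rule, with their values seen. Whether equal replicate numbers mark pairs was checked by correlating deviations from the group means over 3812 genes. Replicates 1, 2 and 3 gave 0.29, 0.13 and -0.04 between untreated and healthy cartilage. Between CLCS and healthy cartilage they gave 0.28, 0.14 and 0.19, and between the defect groups 0.25, 0.33 and 0.30. These values were not set against those of unequal replicate numbers, and no label ties the numbers to animals. They therefore cannot decide whether equal numbers mark pairs. The main fits used no pairing, and fits with a replicate block are given below.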

Additional observations from a re-analysis of the deposited data

How the results depend on the processing

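The 10 members were recomputed with other pseudocounts, filters, scalings, tests and designs, without single libraries, and under scaling to reads outside the 13 mitochondrial genes and the most abundant gene, which was chosen after seeing the data. Of 480 log2 fold changes, 452 kept their direction and their side of the threshold, 27 changed sign, none of them with a call, and 1 became a call, ND6 with DESeq2. DESeq2 thus called 1 member in untreated against healthy cartilage, and the other 47 of 48 counts of called members stayed at 0. In CLCS against untreated defects no alternative called any gene at all, so the counts of that comparison could only be 0. Leaving out 1 library at a time gave counts of 0 in every comparison. These fits called fewer genes of any kind than the full ones. Over all genes tested they called 1 to 9 in untreated against healthy cartilage, where the full fit called 89. In CLCS against healthy cartilage they called 0 to 75, where the full fit called 104. Counts of 0 in these fits therefore say little about the members. With a replicate block, limma called 0 members in each comparison, and ND6 had adjusted p-values of 0.231, 0.272 and 0.913 in untreated against healthy, CLCS against healthy and CLCS against untreated libraries. The block changed no call of a member or of ELAC2. Over all alternatives ND6 differed from healthy cartilage by 0.82 to 1.16 in untreated (adjusted p 0.0336 to 0.441) and by 0.36 to 0.90 in CLCS defects (adjusted p 0.206 to 0.745) on the log2 scale.

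With totals outside the 13 mitochondrial genes, the log2 difference of ND3 in untreated against healthy cartilage became 0.18, those of ND2 and COX1 in CLCS against healthy cartilage became -0.33 and -0.034, and those of ND1 and ELAC2 in CLCS against untreated defects became -0.50 and -0.075. With the most abundant gene also left out, ND3 became 0.012, ND2 became -0.11 and ND1 became -0.14 in the same comparisons, and ND6 in CLCS libraries (15369 to 30443) lay just above healthy ones (9790 to 15258). The cause of these changes was not tested. Leaving out 1 library at a time let the log2 difference cross 0 for CYTB (-0.66 to 0.020), ND4 (-0.10 to 0.49), COX2 (-0.14 to 0.56) and ND3 (-0.48 to 0.46) in untreated against healthy cartilage. In CLCS against healthy cartilage it did so for ND2 (-0.23 to 0.34), ND3 (-0.84 to 0.11), ND4 (-0.37 to 0.20) and ND5 (-0.44 to 0.13). In CLCS against untreated defects it did so for ND1 (-0.37 to 0.42), COX3 (-0.46 to 0.024), CYTB (-0.32 to 0.18) and ELAC2 (-0.17 to 0.90). Without 1 library the mean ND6 share was 87.7% to 89.6% in healthy, 92.7% to 93.4% in untreated and 93.3% to 94.2% in CLCS libraries. The call of ELAC2 in CLCS against healthy cartilage was kept in 5 of 16 alternatives, with an adjusted p of 4.95e-05 to 0.177. The depth was lowest for ND1, with 10 to 47 reads per library.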
